A study of Homo sapiens with 7 samples.

Results

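The genes described here are 10 regulators of apoptosis of the BCL2 family: MCL1, BCL2, BCL2L1, BCL2L11, BMF, BAK1, BID, BIK, BAD and PMAIP1. They were taken by name from a table of 23710 genes, and all 10 were found. The choice was made with earlier results of these data known. All but BIK passed a minimum mean of 50 normalized counts over the 4 libraries. SNU398, an established cell line of human hepatocellular carcinoma, was given 30 µM of a peptide for 8 hours, and total RNA was sequenced from 1 library per peptide. PEN is penetratin, a sequence that carries cargo into cells. PEN-MUT, PEN-WT and PEN-FFW each carry in addition, from what is known of the study, a stretch derived from the zinc finger transcription factor SALL4: the native form for PEN-WT, a mutated control for PEN-MUT and an engineered form for PEN-FFW. Every library came from cells exposed to a penetratin peptide, and no library of untreated cells is analysed here. The other 3 of the 7 samples, chromatin immunoprecipitations and their input, are not analysed here either.

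The BCL2 family decides whether the outer membrane of mitochondria stays intact. Guardians such as MCL1, BCL2 and BCL2L1 (BCL-XL) hold the pore-forming effectors BAK1 and BAX in check. Proteins that share only the BH3 segment with the rest of the family, among them BCL2L11 (BIM), BMF, BID, BIK, BAD and PMAIP1 (NOXA), occupy the groove of the guardians or engage the effectors directly. Hepatocytes and liver carcinomas are known to rely on MCL1 and BCL2L1, and several BH3-only genes are controlled mainly through their transcription.

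Values are normalized counts as the authors deposited them, after the log was undone. Depth was between 27347377 reads (PEN-FFW) and 40717633 reads (PEN-WT) in genes above the table's floor of 5. The 10 genes together took 509 of every 1000000 reads under PEN, 447 under PEN-MUT, 442 under PEN-WT and 433 under PEN-FFW. Differences between libraries are on the scale log2(normalized count + 10), which understates the fold of low genes, and are relative to the median of the 12578 genes that averaged at least 50 normalized counts, called retained below. As deposited, that median lay -0.27 from PEN for the PEN-FFW library, and -0.30 from PEN-MUT. Values of PEN-FFW are therefore also given as deposited, in brackets or in the next sentence. The ± after a difference is the counting error of the reads only. With 1 library per peptide no test was possible, and no difference has a replicate check. Of 13 markers of liver cells and liver carcinoma, ALB and GPC3 were among those that passed the minimum, while 8 were listed at the floor in every library, namely APOB, TTR, SERPINA1, HNF4A, FGB, KRT8, KRT18 and DLK1. Of 13 markers of leukocytes, endothelium, fibroblasts and bile duct 8 were at the floor in every library (among them CD3E, CD14, PECAM1, VWF, CDH5, KRT7 and KRT19) and 4 (PTPRC, COL1A1, ACTA2 and EPCAM) passed the minimum. Summed over the 13, they lay between 1938 normalized counts under PEN-FFW and 2652 under PEN-WT, and their part in the values below was not tested.

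Per kilobase of canonical transcript, MCL1 was the most abundant of the 10 transcripts. It had a mean of 1979 normalized counts per kilobase over the 4 libraries, with a range from 1514 to 2454. BAD followed with 1080 (967 to 1192), and its range met neither that of MCL1 nor that of BCL2L1. BCL2L1 (637), BAK1 (617) and BID (562) came next, and neighbours among these overlapped over the libraries. PMAIP1 stood lower at 160 (115 to 200.8) and BCL2L11 at 69.0 (66.5 to 72.0), each apart from its neighbours. BIK (18.5), BMF (18.3) and BCL2 (9.08) were the least abundant, and the ranges of neighbours among them overlapped. BCL2, the founding gene of the family, thus had between 7.24 and 11.1 normalized counts per kilobase. With the length of the union of exons in place of the canonical transcript, BAK1 stood above BAD and BAD above BCL2L1, and the other ranks were the same.

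**Figure D1:**
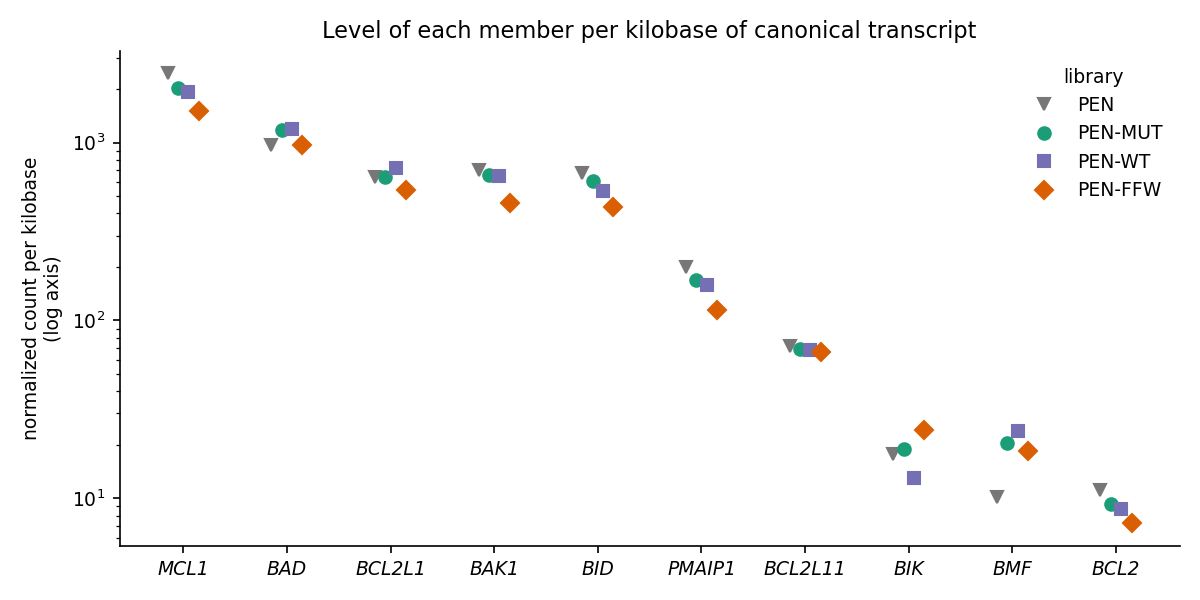
Normalized count per kilobase of canonical transcript (log axis) for each of the 10 genes, ordered by their mean, with 1 point per library (PEN triangles, PEN-MUT circles, PEN-WT squares, PEN-FFW diamonds). MCL1 lies between 1514 and 2454, and BIK, BMF and BCL2 all lie under 25.

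Among the guardians, MCL1 was highest under PEN and lowest under PEN-FFW. MCL1 codes for a short-lived protein whose supply depends on steady transcription, and lies on chromosome 1 (150533371 to 150552214, minus strand, GRCh37). It had 9691 normalized counts under PEN, 7987 under PEN-MUT, 7619 under PEN-WT and 5979 under PEN-FFW. The 95% counting intervals of the 4 libraries did not overlap one another. In bulk RNA, fewer cells with a transcript and less of it per cell cannot be told apart. Relative to the median gene MCL1 stood at -0.43 ± 0.02 under PEN-FFW, -0.38 ± 0.02 under PEN-WT and -0.30 ± 0.02 under PEN-MUT against PEN. As deposited the PEN-FFW value was -0.70, so how low PEN-FFW lay depends on the scaling. Against PEN-MUT the relative differences were -0.12 ± 0.02 for PEN-FFW (-0.42 as deposited and -0.07 against genes of like GC content) and -0.07 ± 0.02 for PEN-WT.

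BCL2L1, which codes for BCL-XL, had the narrowest range of the 10 genes after centring on the median gene, but not as deposited. It had 1654 normalized counts under PEN, 1651 under PEN-MUT, 1849 under PEN-WT and 1400 under PEN-FFW. Its range over the 4 libraries, after centring, was 0.14, and 17.9% of the retained genes had a smaller range. As deposited it was 0.40, above those of BAD (0.30) and BCL2L11 (0.11). Against PEN it stood at 0.13 ± 0.04 under PEN-WT and -0.02 ± 0.05 under PEN-MUT, and under PEN-FFW at 0.03 ± 0.05 relative to the median gene but -0.24 as deposited. BCL2L1 lies on chromosome 20 (30252255 to 30311792, minus strand). BCL2, on chromosome 18 (60790579 to 60987361, minus strand), had 76.4 normalized counts under PEN, 64.0 under PEN-MUT, 59.8 under PEN-WT and 49.9 under PEN-FFW. These rest on 54 to 91 reads, and the counting intervals of all 4 libraries overlapped. The 95% counting interval of the difference from PEN, relative to the median gene, held 0 in each library. It ran from -0.67 to 0.15 for PEN-FFW, from -0.72 to 0.04 for PEN-WT and from -0.65 to 0.16 for PEN-MUT. As deposited, PEN-FFW stood at -0.53 from PEN with an interval from -0.94 to -0.12, which does not hold 0.

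The effector BAK1, whose protein oligomerises in the mitochondrial outer membrane, was lowest under PEN-FFW. It lies on chromosome 6 (33540324 to 33548070, minus strand) and had 1527 normalized counts under PEN, 1423 under PEN-MUT, 1410 under PEN-WT and 995 under PEN-FFW. The counting intervals of PEN, PEN-MUT and PEN-WT overlapped, and that of PEN-FFW lay below them. Relative to the median gene PEN-FFW stood at -0.34 ± 0.06 from PEN, -0.21 ± 0.06 from PEN-MUT and -0.20 ± 0.06 from PEN-WT. As deposited these were -0.61, -0.51 and -0.50. The annotation holds processed pseudogenes of BAK1, so its reads may have been split between copies.

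**Figure D2:**
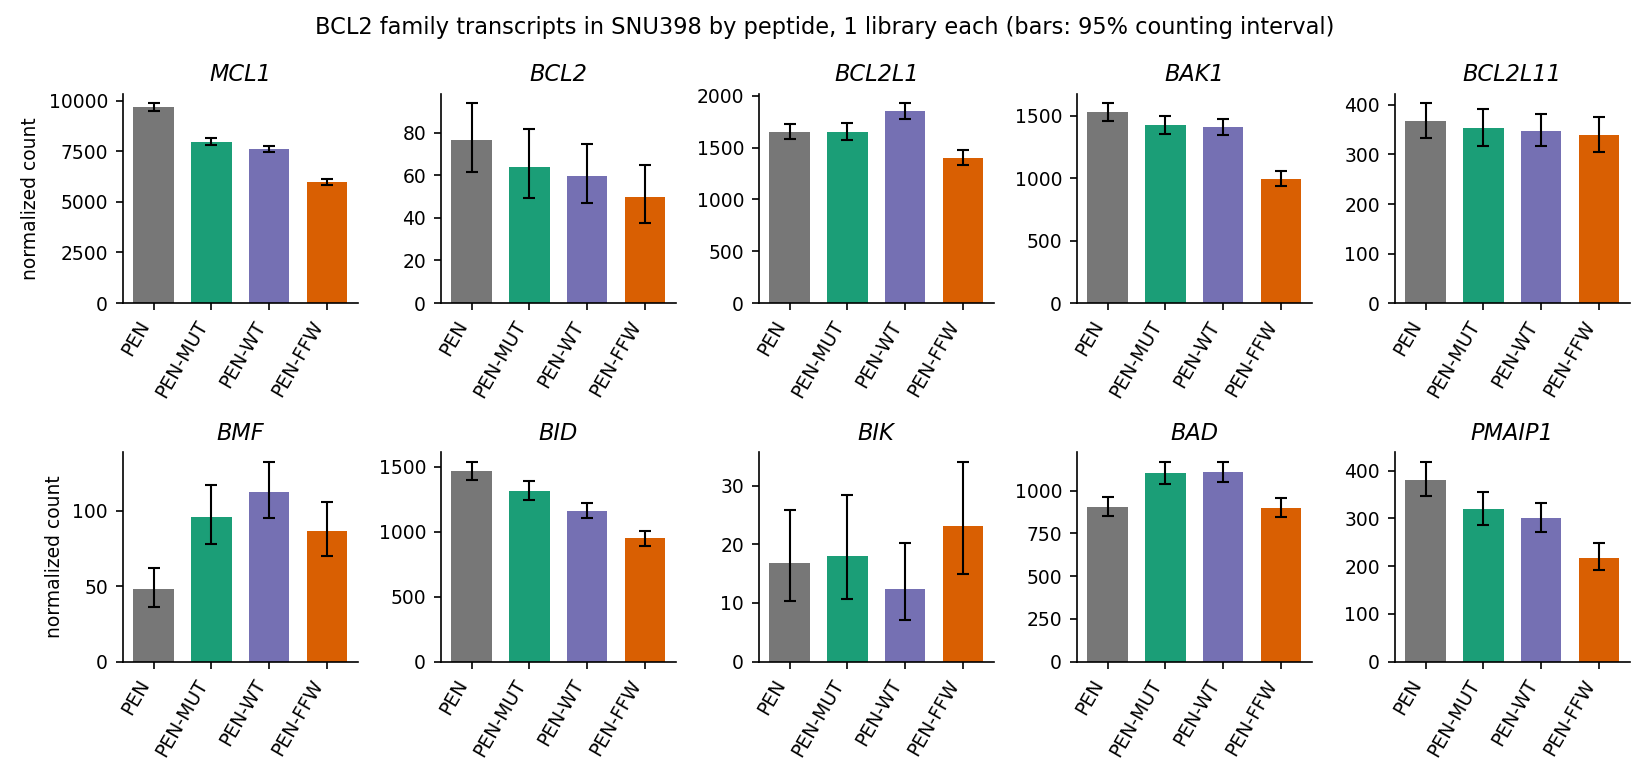
Normalized counts of the 10 genes in each library (bars, axes from 0), with 95% counting intervals from 1 library per peptide. BMF is lowest under PEN (47.9) and MCL1 and PMAIP1 are highest there (9691 and 381).

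Among the members that passed the minimum, only BMF was at least 1.5-fold apart in any pair of libraries relative to the median gene. It was lowest under PEN. Its protein is held at the cytoskeleton through a dynein light chain and binds guardians when released. BMF, on chromosome 15 (40380091 to 40401093, minus strand), had 47.9 normalized counts under PEN, 96.0 under PEN-MUT, 113 under PEN-WT and 86.8 under PEN-FFW. The reads behind these were 57, 96, 145 and 94. The PEN library was low, with a 95% counting interval (36.3 to 62.0) below those of the other three, which overlapped one another. Against PEN the difference was 1.05 ± 0.19 under PEN-WT, 1.01 ± 0.21 under PEN-FFW (0.74 as deposited) and 0.85 ± 0.21 under PEN-MUT. These 3 comparisons share the PEN library, so its low value enters each of them. Against PEN-MUT, PEN-WT stood at 0.21 ± 0.17, and PEN-FFW at 0.17 ± 0.19 relative to the median gene or -0.13 as deposited. Relative to genes of the same transcript GC content BMF was at 1.02 under PEN-WT, 0.96 under PEN-FFW and 0.84 under PEN-MUT against PEN.

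PMAIP1 was highest under PEN and lowest under PEN-FFW. It codes for NOXA, a BH3-only protein that binds MCL1 in particular and promotes its degradation. PMAIP1, on chromosome 18 (57567228 to 57571537, plus strand), had 381 normalized counts under PEN, 319 under PEN-MUT, 300.4 under PEN-WT and 218 under PEN-FFW. The interval of PEN-FFW (191 to 248) lay below those of all other libraries, while PEN-MUT overlapped both PEN and PEN-WT. Against PEN, PMAIP1 stood at -0.51 ± 0.11 under PEN-FFW, where 0.827% of the retained genes were lower, at -0.36 ± 0.10 under PEN-WT and at -0.27 ± 0.10 under PEN-MUT. As deposited the PEN-FFW value was -0.78. Against PEN-MUT the interval of PEN-FFW ran from -0.47 to 0.0018 and that of PEN-WT from -0.29 to 0.12. As deposited, PEN-FFW stood at -0.53 from PEN-MUT, with an interval from -0.76 to -0.30.

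The 250 bases before the RefSeq starts of PMAIP1 and BMF are shown because these genes had the lowest and the highest difference from PEN among the 10 under PEN-FFW. RefSeq promoters (GRCh38.p14) matched 8 of the 10 genes, with 15 starts in all, and MCL1 and BIK were not matched. Each line reads 5′ to 3′ on the gene's strand, and capitals mark GGGCGG or its reverse complement, the GC box bound by SP1. PMAIP1 is at chr18:59899746-59899995 (plus strand), the first BMF start at chr15:40108880-40109129 and the second at chr15:40106967-40107216 (both minus strand).
PMAIP1: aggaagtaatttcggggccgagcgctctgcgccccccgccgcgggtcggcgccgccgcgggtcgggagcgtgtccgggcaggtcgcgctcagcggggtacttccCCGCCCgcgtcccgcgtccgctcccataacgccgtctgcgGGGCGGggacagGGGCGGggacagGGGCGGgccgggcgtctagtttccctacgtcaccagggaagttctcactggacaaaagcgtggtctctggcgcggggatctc
BMF, first start: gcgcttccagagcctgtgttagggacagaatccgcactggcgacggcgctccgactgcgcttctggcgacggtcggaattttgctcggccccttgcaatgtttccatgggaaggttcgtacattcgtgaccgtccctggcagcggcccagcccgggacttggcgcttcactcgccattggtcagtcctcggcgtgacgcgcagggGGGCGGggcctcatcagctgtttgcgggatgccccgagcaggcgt
BMF, second start: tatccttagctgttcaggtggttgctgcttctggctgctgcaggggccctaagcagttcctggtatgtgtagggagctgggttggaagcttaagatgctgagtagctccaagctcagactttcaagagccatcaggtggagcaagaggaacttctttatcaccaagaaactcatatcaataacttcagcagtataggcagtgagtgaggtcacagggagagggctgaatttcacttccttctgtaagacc

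The PMAIP1 window had 72.8% GC and 36 CpG pairs, and the first BMF window 65.2% and 26. The second BMF window had 48.8% GC and 0 CpG pairs, against a median of 58.0% GC over 35116 windows of all genes. PMAIP1 held 4 GC boxes, with first bases at -146, -106, -94 and -82 from the start, and the first BMF window 1, at -45. The GC box was present in 42.6% of all windows and in 10 of the 15 of the members (BAD, BAK1, BCL2L11, BID, BMF and PMAIP1). Windows of BID overlap one another, as do those of BAD, and some hold the same box. The 15 windows are therefore not separate counts, and no excess over all windows can be read from them. Of the 9 other motifs searched on both strands, none was found in the windows of PMAIP1 or BMF. These were the cyclic AMP response element TGACGTCA (1.65% of all windows), the AP-1 site TGACTCA (4.20%), the E-box CACGTG (6.34%), the EGR1 site GCGGGGGCG (4.72%), the forkhead site TGTTTAC (2.98%), the CHOP and ATF4 element TGATGCAAT (0.216%), the E2F site TTTCCCGC (1.39%), the ETS site CCGGAAGT (3.42%) and the TATA box TATAAA (10.7%). The GC box and the EGR1 site can overlap. The counts are per gene, so reads from the 2 BMF starts cannot be told apart.

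BCL2L11 codes for BIM, which binds every guardian and can activate the effectors. On chromosome 2 (111876955 to 111926021, plus strand), it had 367 normalized counts under PEN, 354 under PEN-MUT, 348 under PEN-WT and 339 under PEN-FFW, and the 4 counting intervals overlapped. Relative to the median gene PEN-FFW stood at 0.24 ± 0.10 from PEN-MUT and 0.26 ± 0.10 from PEN-WT, but as deposited the signs turned, at -0.06 and -0.04. Against PEN the differences were 0.16 ± 0.10 for PEN-FFW (-0.11 as deposited), -0.11 ± 0.09 for PEN-WT and -0.07 ± 0.10 for PEN-MUT. Its promoter window was the only one of the members' windows with the forkhead site (at -223) and with the EGR1 site (at -79). Among the other members the E-box was found in 2 overlapping windows of BID, which hold the same site, and the TATA box in 1 window of BCL2L1.

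BID, which caspase-8 cleaves to link death receptors to mitochondria, was highest under PEN. On chromosome 22 (18216904 to 18257536, minus strand), it had 1468 normalized counts under PEN, 1316 under PEN-MUT, 1164 under PEN-WT and 950 under PEN-FFW, with no overlap between the counting intervals. Relative to the median gene BID stood at -0.35 ± 0.06 under PEN-FFW (-0.62 as deposited), -0.36 ± 0.05 under PEN-WT and -0.18 ± 0.05 under PEN-MUT against PEN. Between PEN-FFW and PEN-WT the relative difference was 0.01 (95% counting interval -0.10 to 0.13), and -0.29 as deposited.

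BAD, whose protein binds BCL2 and BCL-XL unless survival kinases phosphorylate it, was higher under PEN-MUT and PEN-WT than under PEN. Where PEN-FFW stood depends on the scaling. On chromosome 11 (64037302 to 64052176, minus strand), it had 906 normalized counts under PEN, 1100 under PEN-MUT, 1108 under PEN-WT and 898 under PEN-FFW. As deposited, the intervals of PEN and PEN-FFW overlapped, as did those of PEN-MUT and PEN-WT, and the 2 pairs lay apart. Relative to the median gene BAD stood at 0.26 ± 0.06 from PEN under PEN-MUT and 0.26 ± 0.06 under PEN-WT, and under PEN-FFW at 0.26 ± 0.06, but at -0.01 as deposited. BAD has the most GC-rich transcript of the 10 (65.8%). Relative to the 605 genes of its GC bin it stood at 0.0037 under PEN-FFW, 0.11 under PEN-WT and 0.23 under PEN-MUT against PEN. Its exons overlap those of GPR137 on the opposite strand over 404 bases. GPR137 had between 1155 and 1521 normalized counts, and without a stated strand setting reads from the overlap cannot be assigned. Smaller or non-coding partners overlap exons of MCL1 (ADAMTSL4 over 43 bases and ADAMTSL4-AS1 over 328), BCL2L1 (ABALON, 1735), BAK1 (GGNBP1, 91), BCL2L11 (MIR4435-2HG, 727) and BMF (BMF-AS1, 461). Reads from these overlaps cannot be assigned either. ADAMTSL4-AS1 lies on the same strand as MCL1, so a known strand setting would not separate the reads of these genes. Of these partners only ADAMTSL4 and GGNBP1 have deposited counts.

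BIK, a BH3-only protein of the endoplasmic reticulum, did not pass the minimum. On chromosome 22 (43506756 to 43525718, plus strand), it had 16.8 normalized counts under PEN, 18.0 under PEN-MUT, 12.4 under PEN-WT and 23.1 under PEN-FFW, from 16 to 25 reads, and all counting intervals overlapped. Relative to the median gene PEN-FFW lay 0.86 ± 0.28 above PEN-WT (95% counting interval 0.31 to 1.42), the only pair in which it was past 1.5-fold. As deposited the difference was 0.56, short of 1.5-fold.

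Of the 9 members that passed the minimum, the count at least 1.5-fold from the median gene was as follows in the 6 pairs of libraries, each set beside the share of all 12578 retained genes. Against PEN, 1 member (BMF) was higher and 0 were lower under PEN-FFW, where 7.24% of retained genes were higher and 0.437% lower. In PEN-WT against PEN the counts were also 1 (BMF) and 0, with 0.827% and 0.374% of retained genes. PEN-MUT against PEN again gave 1 (BMF) and 0, with 0.215% and 0.35%. Against PEN-MUT no member was past 1.5-fold under PEN-FFW (7.24% higher and 0.0875% lower among retained genes) or under PEN-WT (0.898% and 0.0159%). None was under PEN-FFW against PEN-WT (4.17% and 0.0318%). As deposited, with no centring, 4 members were lower under PEN-FFW than under PEN (MCL1, BAK1, BID and PMAIP1), where 6.07% of retained genes were lower, and BMF was higher, where 3.24% were.

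The median difference of the 9 members from PEN was -0.26 under PEN-FFW (-0.53 as deposited), -0.14 under PEN-WT and -0.12 under PEN-MUT. The lower and upper quartiles of all retained genes were -0.15 and 0.21, -0.10 and 0.12, and -0.09 and 0.08 in those comparisons. Against PEN-MUT the member median was -0.0080 under PEN-FFW (-0.31 as deposited) and -0.03 under PEN-WT, and between PEN-FFW and PEN-WT it was -0.04 (-0.34 as deposited).

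**Figure D3:**
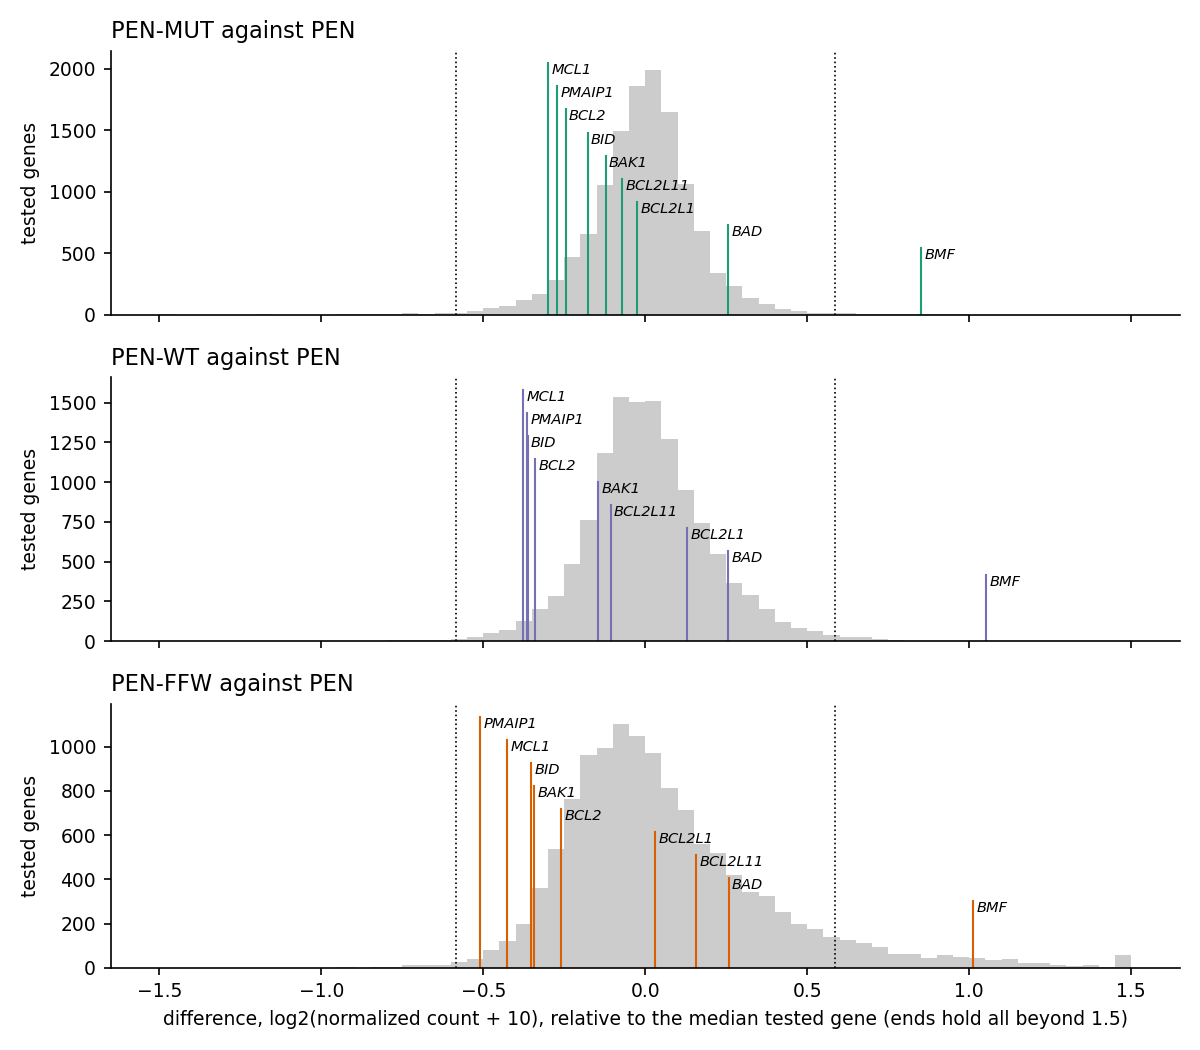
Histograms of the difference of each retained gene from PEN, on log2(normalized count + 10) and relative to the median gene, in 1 panel per peptide, with the 9 retained members as vertical lines (their heights only separate the names) and dotted lines at 1.5-fold. BMF lies at 0.85, 1.05 and 1.01 and PMAIP1 at -0.27, -0.36 and -0.51, under PEN-MUT, then PEN-WT, then PEN-FFW.

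Ratios of members within a library do not depend on the scaling between libraries. Of 6 ratios computed, all chosen after the values were seen, BMF over MCL1 differed most. There were 4.94 BMF reads per 1000 MCL1 reads under PEN, 12.0 under PEN-MUT, 14.8 under PEN-WT and 14.5 under PEN-FFW. Against PEN this ratio was 2.99-fold higher under PEN-WT (95% counting interval 2.20 to 4.07), 2.94-fold under PEN-FFW (2.11 to 4.09) and 2.43-fold under PEN-MUT (1.75 to 3.38). All folds against PEN share that library, so its BMF and MCL1 reads enter each of them. BAD over MCL1 was 93.5 per 1000 under PEN against 138 under PEN-MUT, 145 under PEN-WT and 150.2 under PEN-FFW. No ratio was corrected for GC content. Genes of BAD's GC bin had a median of 0.25 under PEN-FFW from PEN, and those of MCL1's bin -0.055. BCL2L11 over MCL1 was 37.9 per 1000 under PEN, 44.3 under PEN-MUT, 45.6 under PEN-WT and 56.7 under PEN-FFW, where it was 1.5-fold that of PEN (95% counting interval 1.30 to 1.73).

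PMAIP1 reads were also set against those of MCL1, the guardian that its protein binds. There were 39.3 PMAIP1 reads per 1000 MCL1 reads under PEN, 39.9 under PEN-MUT, 39.4 under PEN-WT and 36.4 under PEN-FFW, and the 4 counting intervals overlapped. The ratio of PEN-FFW to PEN was 0.926 (0.789 to 1.09). Between the 2 abundant guardians, MCL1 over BCL2L1 was 5.86 reads per read under PEN, 4.84 under PEN-MUT, 4.12 under PEN-WT and 4.27 under PEN-FFW. BAK1 over BCL2L1 was 0.923 under PEN, 0.862 under PEN-MUT, 0.762 under PEN-WT and 0.711 under PEN-FFW.

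**Figure D4:**
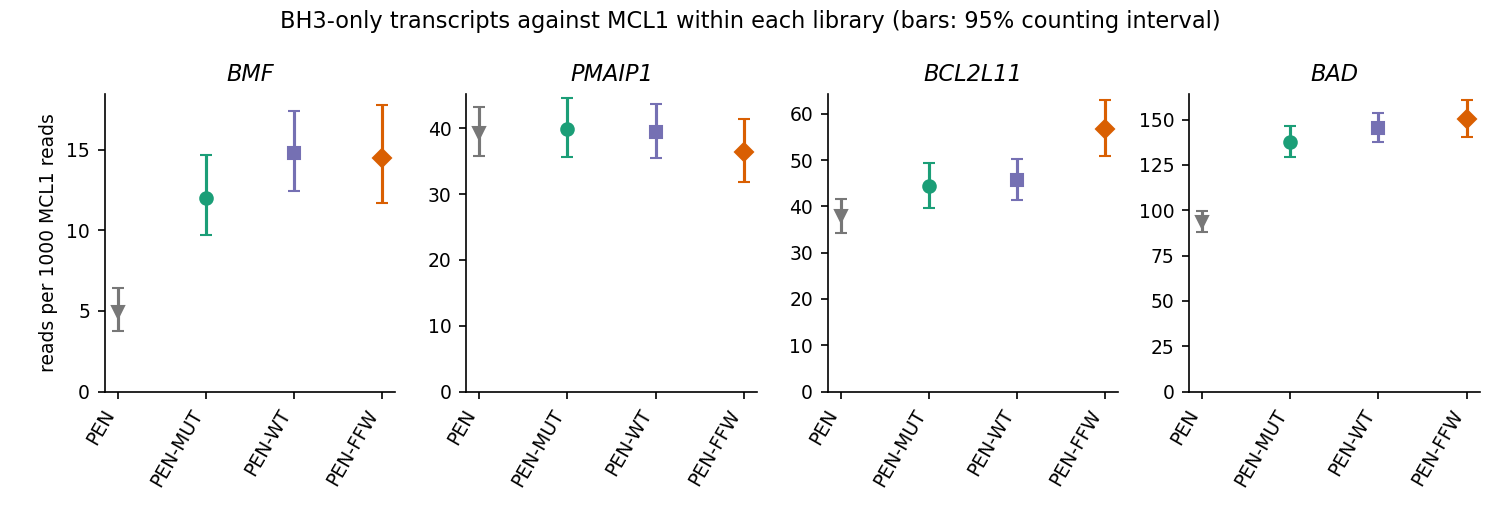
Reads of BMF, PMAIP1, BCL2L11 and BAD per 1000 MCL1 reads in each library (axes from 0), with exact 95% counting intervals. BMF and BAD are lowest under PEN (4.94 and 93.5), whereas PMAIP1 lies between 36.4 and 39.9 throughout.

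Grouped by role, the guardians made up 53.9% ± 0.4 (counting error) of the summed count per kilobase of the 10 genes under PEN, 49.6% ± 0.5 under PEN-MUT, 50.2% ± 0.4 under PEN-WT and 49.7% ± 0.5 under PEN-FFW. MCL1 alone was 42.6% under PEN and between 36.4% and 37.5% in the other libraries. The BH3-only genes took 33.9% ± 0.4 under PEN, 38.3% ± 0.5 under PEN-MUT, 37.6% ± 0.5 under PEN-WT and 39.2% ± 0.6 under PEN-FFW. BAD took 16.9% under PEN and 22.0% to 23.3% under the others, while the other five BH3-only genes together took 16.9% under PEN, 16.3% under PEN-MUT, 15.1% under PEN-WT and 15.9% under PEN-FFW. The shares were not corrected for GC content, and BAD has the most GC-rich transcript of the 10. The effector BAK1 took 12.2% under PEN, 12.2% under PEN-MUT, 12.3% under PEN-WT and 11.1% under PEN-FFW.

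Of 15 other genes of the family, 11 passed the minimum and 0 of them were past 1.5-fold in any of the 6 pairs relative to the median gene, where between 0.0159% and 7.24% of retained genes were in 1 direction. As deposited, 1 (BBC3) was lower by over 1.5-fold under PEN-FFW than under PEN-MUT (-0.62, with 4.40% of retained genes lower) and than under PEN-WT (-0.61, with 2.05%). Against PEN their medians were 0.07 under PEN-FFW (-0.20 as deposited), 0.06 under PEN-WT and 0.03 under PEN-MUT. BBC3 (PUMA), a BH3-only gene that p53 activates, had 114 normalized counts under PEN, 161 under PEN-MUT, 160 under PEN-WT and 102 under PEN-FFW. It stood at 0.44 ± 0.16 under PEN-MUT, 0.42 ± 0.15 under PEN-WT and 0.12 ± 0.17 under PEN-FFW against PEN (-0.16 as deposited under PEN-FFW). The effector BAX had 696, 722, 785 and 535 normalized counts in the usual order of PEN, PEN-MUT, PEN-WT, PEN-FFW, with a relative difference of -0.10 ± 0.08 under PEN-FFW from PEN (-0.37 as deposited). BOK, an effector that guardians restrain little, had 1730, 1787, 1784 and 1548 in that order. Relative to genes of the same transcript GC content, BBC3 stood at 0.41 under PEN-MUT, 0.27 under PEN-WT and -0.14 under PEN-FFW from PEN. On that scale BAX stood at -0.29 and BOK at -0.14 under PEN-FFW from PEN, whereas BOK was at 0.11 relative to the median gene.

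BCL2L2 (BCL-W), the remaining abundant guardian, had 1584 normalized counts under PEN, 1529 under PEN-MUT, 1687 under PEN-WT and 1448 under PEN-FFW, a relative difference of 0.14 ± 0.05 under PEN-FFW from PEN (-0.13 as deposited). The BH3-only gene HRK had between 133 and 166 normalized counts. As deposited, each retained gene among these other family genes had its lowest count under PEN-FFW. BCL2L12 (904 to 1226), BCL2L13 (1926 to 2612) and BNIP2 (1376 to 1932) had relative differences from PEN of -0.17 ± 0.06, -0.17 ± 0.04 and -0.22 ± 0.05 under PEN-FFW (-0.44, -0.44 and -0.49 as deposited). Relative to genes of the same transcript GC content these were -0.35, -0.12 and -0.13. The mitophagy receptors BNIP3 and BNIP3L stood at 0.08 ± 0.05 and 0.12 ± 0.07 under PEN-FFW (-0.19 and -0.15 as deposited), and BNIP1 at 0.01 ± 0.08 (-0.26 as deposited). BCL2A1, BCL2L10 and BCL2L15 were listed at the floor in every library. BCL2L14 was at the floor in all but PEN-FFW, where it had 15.7 normalized counts from 17 reads.

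**Figure D5:**
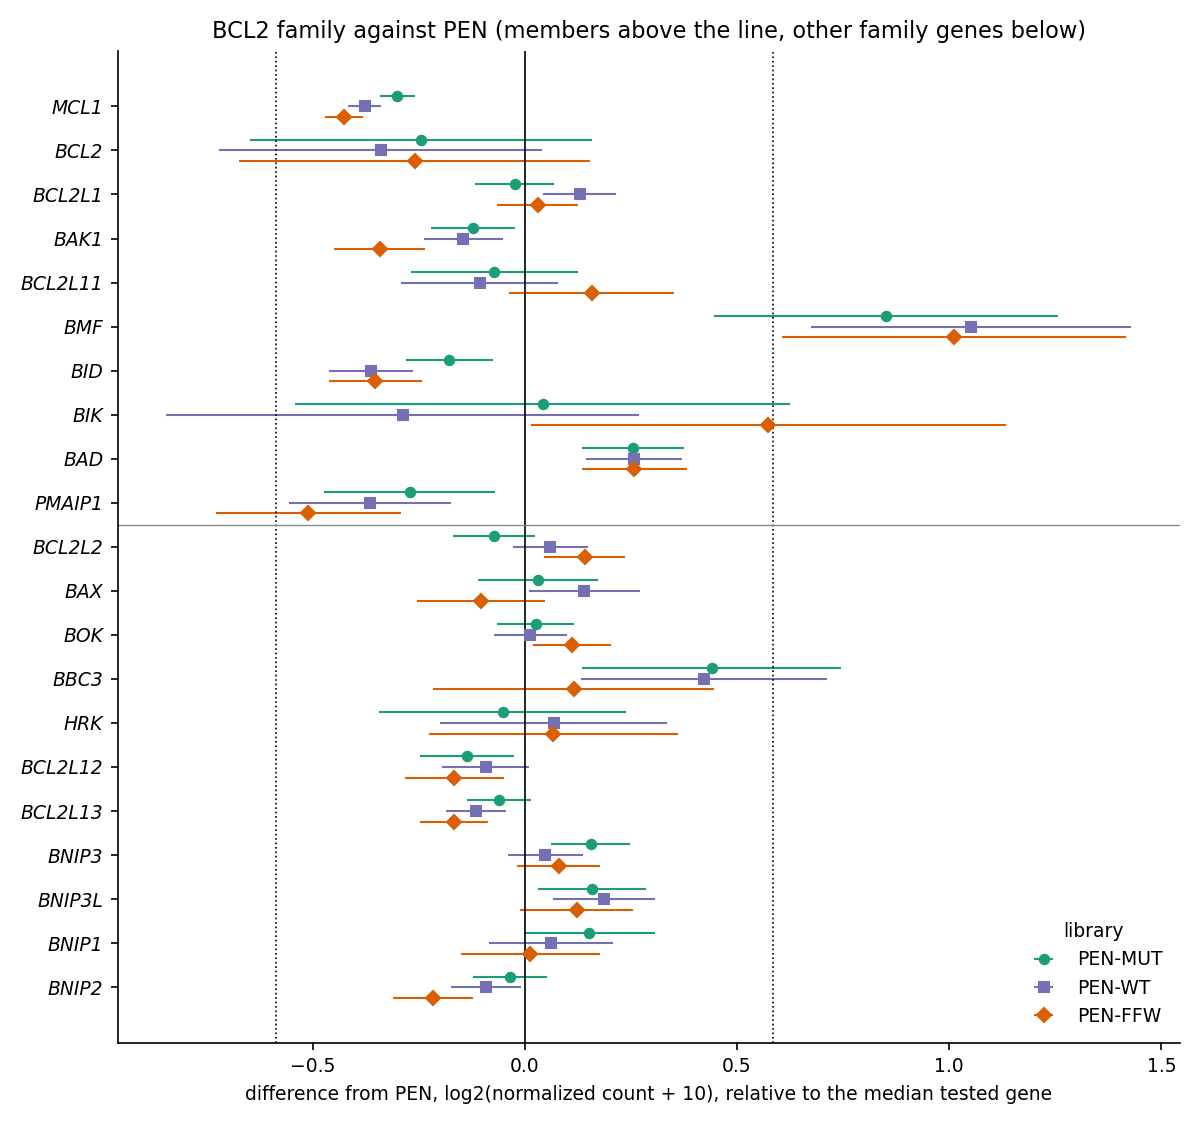
Difference from PEN of the 10 members (above the line) and the 11 other retained family genes (below it), on log2(normalized count + 10) and relative to the median gene, 1 marker shape per peptide (circle PEN-MUT, square PEN-WT, diamond PEN-FFW), with 95% counting intervals as bars and dotted lines at 1.5-fold. BMF lies right of the dotted line in each comparison, and BBC3 is the next highest retained gene under PEN-MUT (0.44) and PEN-WT (0.42).

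Lists of pathway genes were counted in the same way, and their counts stand beside the low shares of all retained genes past 1.5-fold: against PEN, 7.24% higher and 0.437% lower under PEN-FFW, and under 1% in either direction under PEN-WT and PEN-MUT. Of 12 retained genes of the apoptosome and the caspases, 0 were past 1.5-fold against PEN under PEN-FFW, PEN-WT or PEN-MUT, and CASP2, named after its value was seen, was the only one past it in another pair (0.61 under PEN-WT against PEN-MUT). ENDOG, a mitochondrial nuclease, stood at 0.51 ± 0.18 under PEN-FFW from PEN (0.24 as deposited), and CASP9, the initiator caspase of the apoptosome, at 0.36 ± 0.08 (0.09 as deposited). CYCS, which codes for the cytochrome c that the pore releases and has many processed pseudogenes that may share its reads, had 6679 normalized counts under PEN, 6674 under PEN-MUT, 6292 under PEN-WT and 4618 under PEN-FFW (-0.26 ± 0.03 from PEN, -0.53 as deposited). Of 8 inhibitors of apoptosis and their antagonists, 1 was lower by over 1.5-fold under PEN-WT than under PEN. This was BIRC3, a ubiquitin ligase of the NF-kappa-B pathway, with 359 normalized counts under PEN, 270 under PEN-MUT, 213 under PEN-WT and 244 under PEN-FFW. Its differences from PEN were -0.76 ± 0.11 under PEN-WT, -0.42 ± 0.11 under PEN-MUT and -0.27 ± 0.11 under PEN-FFW (-0.54 as deposited). Under PEN-FFW, BIRC2 stood at -0.26 ± 0.04 (-0.53 as deposited) and NAIP at 0.27 ± 0.19 (0.0048 as deposited). Of 8 death receptor genes, 0 were past 1.5-fold in any pair, with the adaptor TRADD at 0.34 ± 0.10 (0.07 as deposited), the receptor TNFRSF10A at -0.28 ± 0.09 (-0.55 as deposited) and the caspase-8 inhibitor CFLAR at 0.16 ± 0.06 (-0.11 as deposited) under PEN-FFW from PEN. The medians of these lists under PEN-FFW from PEN were -0.08 for the apoptosome, -0.08 for the inhibitors of apoptosis and -0.09 for the death receptors, and -0.35, -0.35 and -0.36 as deposited. As deposited, none of these 3 lists had a different count past 1.5-fold in any of the 6 pairs.

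Among 21 retained protein partners of the family, MOAP1 and TRIM17 were past 1.5-fold relative to the median gene. MOAP1 was lower against PEN under PEN-FFW, PEN-WT and PEN-MUT, where 0.437%, 0.374% and 0.35% of retained genes were. TRIM17 was higher against PEN under PEN-FFW and PEN-WT, where 7.24% and 0.827% were. Under PEN-FFW it was also higher than under PEN-MUT (1.31, with 7.24%) and PEN-WT (0.88, with 4.17%). As deposited these were 1.01 and 0.57, the latter short of 1.5-fold. As deposited, DYNLL1, VDAC2 and VDAC3, named after their values were seen, were also lower by over 1.5-fold under PEN-FFW than under PEN-MUT, where 4.40% of retained genes were. MOAP1, an adaptor that binds BAX, had 1756 normalized counts under PEN, 1178 under PEN-MUT, 1008 under PEN-WT and 830 under PEN-FFW. It stood at -0.80 ± 0.06 under PEN-FFW (-1.07 as deposited), -0.83 ± 0.05 under PEN-WT and -0.59 ± 0.05 under PEN-MUT from PEN (-0.57 as deposited, short of 1.5-fold). TRIM17, a ubiquitin ligase that acts on MCL1, had 53.7 normalized counts under PEN, 72.0 under PEN-MUT, 101 under PEN-WT and 155 under PEN-FFW. Its differences from PEN were 1.64 ± 0.18 under PEN-FFW (1.37 as deposited), 0.77 ± 0.19 under PEN-WT and 0.34 ± 0.21 under PEN-MUT. The median of the partners from PEN was -0.15 under PEN-FFW (-0.42 as deposited), -0.04 under PEN-WT and -0.04 under PEN-MUT, where all retained genes have a median of 0. PIM1, a kinase that phosphorylates BAD, stood at 0.39 ± 0.13 under PEN-FFW (0.12 as deposited) and 0.51 ± 0.12 under PEN-WT.

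Of 18 transcription factors known to act on these genes, 1 (MYC) was past 1.5-fold against PEN relative to the median gene, at -0.73 ± 0.03 under PEN-FFW (-0.998 as deposited) and -0.68 ± 0.03 under PEN-WT, where 0.437% and 0.374% of retained genes were lower by at least 1.5-fold. It stood at -0.51 ± 0.03 under PEN-MUT. As deposited, 2 (MYC and MITF) were lower by over 1.5-fold under PEN-FFW than under PEN, where 6.07% of retained genes were. MITF stood at -0.41 ± 0.07 from PEN relative to the median gene and at -0.68 as deposited, and at -0.63 from PEN-MUT as deposited. ATF3 and MITF were also over 1.5-fold lower under PEN-FFW than under PEN-WT as deposited, where 2.05% of retained genes were. ATF3 was named after its value was seen. FOXO4 stood at 0.42 ± 0.19 under PEN-FFW (0.15 as deposited). The median of the 18 was 0.07 under PEN-FFW (-0.20 as deposited). A list of 8 retained nuclear and snoRNA host RNAs marks RNA quality. Of these, 3 (MALAT1, NEAT1 and KCNQ1OT1) were over 1.5-fold higher under PEN-FFW than under PEN, where 7.24% of retained genes were (3.24% as deposited). They stood at 0.61, 1.08 and 1.66 (0.34, 0.81 and 1.39 as deposited, MALAT1 then being short of 1.5-fold). As deposited, the list summed to 69148 normalized counts under PEN, 58461 under PEN-MUT, 69462 under PEN-WT and 81655 under PEN-FFW. Most of each sum was MALAT1, with 47717, 38131, 48373 and 60477 in that order. The part of this list in the PEN-FFW values of the BCL2 family was not tested.

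By the smallest root mean square distance over the 4 libraries, after centring each gene on its mean, the patterns nearest to BMF were those of PPM1K (0.07 on the log2 scale), DKK3 (0.09) and BCL6 (0.11). Of 11557 candidate genes, 2 lay within 0.1 of BMF, 14 of BIK and 818 of PMAIP1. PPM1K had 127 normalized counts under PEN, 214 under PEN-MUT, 257 under PEN-WT and 220 under PEN-FFW, and BCL6 had 260.3, 406, 467 and 377 in that order. That PEN was lowest for both follows from their choice by likeness to BMF. The nearest to PMAIP1 were INHBA (0.0082), EXTL2 (0.015) and GFI1 (0.018), and INHBA had 465 normalized counts under PEN, 389 under PEN-MUT, 372 under PEN-WT and 267 under PEN-FFW. Nearest to BIK were NEB (0.03), EFCAB13 (0.04) and ATP8B1 (0.04). All these distances are smaller than the counting error of the same member's differences from PEN. That error was 0.19 to 0.21 for BMF, 0.28 to 0.30 for BIK and 0.10 to 0.11 for PMAIP1. With 4 libraries and no replicate, such distances are a description only.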

How the data were processed

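RNA of 4 libraries was analysed, 1 per peptide. The deposited table holds log2 values with 23710 genes and 1 column per library, matched through the sample descriptions; it has 0 further columns. The submitters' processing notes name STAR 2.4.0i, featureCounts 1.5.0-p1 and hg19. For annotation, strand setting and normalization, the method was not given in the sources used here. With the log2 undone, 100% of deposited values above the floor of 5 were whole multiples (tolerance 0.1 read) of a step per library, which gave back the reads.

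Genes with a mean of at least 50 normalized counts (12578) were retained. Differences used a pseudocount of 10 and were centred on the median retained gene. Intervals are 95% Poisson, exact binomial (ratios within a library) or normal (differences, and on the log scale ratios set against PEN). They cover counting error only, as PCR copies are not independent molecules. Scripts ran in Python 3.11.15 and were tested on simulated data.

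Positions, lengths and GC content came from GENCODE 44 on GRCh37 (symbols gave 20574 genes, synonyms 1543 more). The members and gene lists were chosen with earlier results of these data known. Named genes were all family genes and, per other list, the 3 farthest from PEN in PEN-FFW. Genes of like pattern were sought for the 3 members with the widest range. Other pseudocounts, scalings, filters, GC bins, lengths and a 2-fold threshold were tried as alternatives. The values of 2 marker genes are not reported here.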

Additional observations from a re-analysis of the deposited data

How the results depend on the processing

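With 1 library per peptide no replicate could be left out, and no difference between peptides can be separated from a difference between cultures. No paired analysis was possible because each peptide has 1 library. Counts of members at least 1.5-fold apart moved as follows. PEN-FFW against PEN went from 1 to 5 both as deposited and with no filter (the median difference of all genes being 0, these settings give the same values), and to 0 with a minimum mean of 200, which BMF does not reach. PEN-WT against PEN went from 1 to 0 with that minimum. PEN-MUT against PEN went from 1 to 0 with that minimum, with a pseudocount of 50 and at 2-fold. PEN-FFW against PEN-WT went from 0 to 1 (BIK) with no filter. Every other count kept its value or stayed within 1.5 times.

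Of 345 alternative values of single members against PEN and PEN-MUT, 311 moved by less than their counting interval and 34 moved further. As deposited 14 of 50 moved further, all of them values of PEN-FFW, and the setting with no filter repeats these. With same-GC centring 6 of 45 moved further, all for MCL1 or BAD. Among values past 1.5-fold 0 changed sign, but only BMF against PEN was past it, so this covers no other member. Without centring 7 of 50 signs changed, all of them for PEN-FFW. With same-GC centring 4 of 45 changed, with a pseudocount of 50 2 of 50, and with median-ratio size factors 0 of 50.

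Shares by role depended on length. Without division by length the guardians took 70.8%, 67.7%, 68.1% and 67.9% (order PEN, PEN-MUT, PEN-WT, PEN-FFW), BAK1 9.46%, 9.93%, 10.1% and 9.10%, and the BH3-only genes 19.8%, 22.4%, 21.8% and 23.0%. With the union of exons these were 52.0%, 48.0%, 48.5% and 48.5%, then 18.3%, 18.4%, 18.5% and 16.8%, then 29.7%, 33.6%, 33.0% and 34.7%. The guardian share was highest in PEN under each length. Depth limited BIK (16 to 25 reads), BCL2 (54 to 91) and BMF (57 to 145).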
